A study of Mus musculus with 9 samples.

Results

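The H2 genes are the major histocompatibility complex of the mouse, and 34 of the 43644 genes in the deposited table belong to them by a symbol that starts with H2- and a protein-coding type. A pair of classical class I heavy chains (H2-K1 and H2-D1), 22 non-classical class I genes and 9 class II genes make up 33 of the 34. The remaining gene, H2-Ke6, lies in the same region and encodes a hydroxysteroid dehydrogenase. RNA came from coronal sutures of C57BL/6 mice aged 7 months; this suture is the fibrous seam where frontal and parietal bone meet in the skull roof. The 9 libraries form 3 groups of 3: wild-type mice (WT), unoperated Twist1+/- mice (MUT), and Twist1+/- mice that had suture regeneration surgery when 1 month old (REG). The labels give no further detail of the Twist1 allele or of the surgery, and no group of wild-type mice with surgery was among the samples. The ages are those of the sample labels; the series text also mentions an induction followed by 1 week, and the protocol mentions pairs of samples, and neither is explained. Nor do the labels state that every library is a mouse of its own, so p-values here cover only the spread between these libraries, which may be technical.

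Class I molecules hold peptides from inside the cell on a heavy chain that pairs with beta-2 microglobulin (B2m), and nearly all nucleated cells carry the classical ones, which are read by CD8+ T cells. Class II molecules are alpha-beta pairs that carry peptides from engulfed material to CD4+ T cells, and macrophages, dendritic cells and B cells are their main sources. The non-classical class I genes have narrower roles, from ligands of natural killer cell receptors to partners of pheromone receptors. C57BL/6 mice carry the b haplotype, in which the alpha chain gene of the H2-E molecule is defective.

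All 34 genes lie on chromosome 17 of GRCm38. H2-K1 (33996017 to 34000348) stands at 1 end beside H2-Ke6 and the class II genes, which run from H2-Oa (34092340) to H2-Eb2 (34341413). H2-D1 (35262730 to 35267500) is followed by the Q genes up to H2-Q10 (35474564), the T genes from H2-T24 (36005695) to H2-T3 (36190288) and the M genes up to H2-M2 (37483553).

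Promoter sequences from RefSeq (GRCm38.p6, 250 bases before to 50 bases after the start) matched 31 of the 34 genes, and those of H2-Ab1, H2-Q1 and H2-T24 are not shown. Parts of 4 class I promoters are printed first, because H2-K1 and H2-D1 both fell in MUT and rose in REG vs MUT (below) and H2-Q6 and H2-Q7 hold the same 3 motifs. Capitals mark, in this order, the 10 letters searched for as a kappaB motif, the 10 letters searched for as an interferon consensus motif, and a Y box (CTGATTGG, which reads CCAATCAG on the strand shown).
H2-K1 (chr17:34000322-34000468, minus strand): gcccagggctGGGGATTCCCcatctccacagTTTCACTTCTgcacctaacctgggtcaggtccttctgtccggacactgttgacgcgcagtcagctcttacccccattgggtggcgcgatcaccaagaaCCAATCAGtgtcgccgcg
H2-D1 (chr17:35262913-35263058, plus strand): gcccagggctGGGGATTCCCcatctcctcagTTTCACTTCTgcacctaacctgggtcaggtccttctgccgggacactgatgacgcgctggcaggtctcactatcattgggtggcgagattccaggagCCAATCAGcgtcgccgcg
H2-Q6 (chr17:35424667-35424812, plus strand): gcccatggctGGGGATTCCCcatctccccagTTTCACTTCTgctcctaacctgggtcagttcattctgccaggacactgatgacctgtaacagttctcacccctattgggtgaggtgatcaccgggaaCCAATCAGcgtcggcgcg
H2-Q7 (chr17:35439012-35439156, plus strand): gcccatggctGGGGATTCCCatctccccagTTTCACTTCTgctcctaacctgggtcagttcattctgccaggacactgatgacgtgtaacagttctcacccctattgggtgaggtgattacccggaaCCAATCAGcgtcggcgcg
Both strands were searched. The kappaB motif was in 0.107% of 32851 promoters of the same length, among them those of these 4 genes and no other H2 gene. The interferon consensus motif was in 0.155% of promoters, and in the same 4 genes, H2-M3, H2-Q4 and H2-Q10. The windows of H2-K1 and H2-D1 were identical at 88.4% of aligned positions, and those of H2-Q6 and H2-Q7 at 97.3%.

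Class II promoters are known for a shared layout that ends in a Y box, and 4 of the 8 class II genes with a RefSeq promoter held the exact letters of it: H2-Aa, H2-Eb1, H2-Eb2 and H2-Oa. They are printed to set H2-Aa and H2-Eb1 beside H2-Eb2 and H2-Oa, which were far less abundant. Capitals mark the Y box (CTGATTGG) and, in H2-Aa, an X2 box (TGACGTCA).
H2-Aa (chr17:34287857-34287924, minus strand): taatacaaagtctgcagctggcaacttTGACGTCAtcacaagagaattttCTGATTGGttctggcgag
H2-Eb1 (chr17:34305755-34305822, plus strand): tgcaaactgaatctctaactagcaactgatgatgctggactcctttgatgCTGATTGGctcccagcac
H2-Eb2 (chr17:34325522-34325589, plus strand): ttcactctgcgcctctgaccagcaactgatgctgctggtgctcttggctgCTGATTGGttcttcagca
H2-Oa (chr17:34092283-34092350, plus strand): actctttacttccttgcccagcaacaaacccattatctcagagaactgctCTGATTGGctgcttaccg
The Y box was in 4.1% of all promoters, in both classical class I genes and in 11 of 20 non-classical class I genes. The X2 box was in 1.79% of all promoters and, among the H2 genes, in that of H2-Aa alone. A match is a description of letters and not a measurement of binding.

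The libraries differed along with their group. The estimated number of gene reads was 16356391 to 20019712 for WT, 2945636 (MUT replicate 2) to 10894209 for MUT and 18276494 to 39377876 for REG libraries. Receptor genes of the olfactory and vomeronasal families belong to sensory neurons of the nose and stand in here for background. They took 1672 to 3396 RPM (estimated reads scaled to 1 equal total per library) in WT, 8555 to 15953 in MUT and 742 to 4664 in REG. The background estimated from their median read density was 22.2%, 7.00% and 20% of the reads in MUT replicates 1 to 3, and at most 0.810% in the other 6 libraries. Twist1, the targeted gene, had deposited values (upper-quartile scaled) of 16.2, 23.3 and 23.1 in WT libraries, 0.987, 8.08 and 0.548 in MUT libraries and 3.76, 9.19 and 12.2 in REG, and was lower in MUT than in WT (log2 difference −3.26 ± 0.76, adjusted p = 0.0109, limma). MUT replicate 2 was the highest of its group for Twist1, and its library name, MB4_S5, does not give its group. The library names of REG replicates 1 and 2 end in the same sheet numbers as those of WT replicates 2 and 3, while that of REG replicate 3 continues the count of WT and MUT; whether these are separate runs is not stated. Genes of suture and bone cells (12 of 12 tested, none at 0 reads in any library) were present in all groups. In MUT 10 of them fell, where 14.6% of all genes tested below fell.

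Levels can be compared between H2 genes only per length. H2-D1 was the most abundant H2 gene in every group, at 54.7 ± 6.72 RPKM (RPM per kb of exon) in the WT mean, 34.6 ± 13.5 in the MUT mean and 103 ± 4.25 in the REG mean (± SD, n = 3). H2-K1 was second, at 29.4 ± 5.33, 19.3 ± 12.2 and 56.4 ± 11.5 RPKM. The 2 classical genes stood above all others in each group mean, but the spread of H2-K1 in MUT overlapped that of the class II genes below it. Next in WT came H2-Eb1 (16.3 ± 3.29 RPKM) and H2-Ab1 (16.2 ± 1.57 RPKM), which did not differ beyond their spread, and then H2-Q1, H2-Aa and H2-Q4 at 7.94 ± 0.822, 6.93 ± 1.40 and 6.83 ± 2.004 RPKM, which also overlapped. In REG the order began with H2-D1, H2-K1, H2-Ab1, H2-Eb1, H2-Aa and H2-DMb1 (9.35 ± 3.75 RPKM), and H2-Q1 stood at 2.36 ± 2.47 RPKM. The 8 M genes that did not pass the filter described below were at most 0.199 RPKM in the WT mean. Summed over all members of a class, classical class I genes gave 97.9, 76.9 and 77.5 RPKM in WT libraries, 80.7, 29.5 and 51.4 in MUT libraries and 175, 153 and 151 in REG, so that MUT and WT overlapped and REG lay above both. The class II sum was 51.0, 44.2 and 38.3 RPKM in WT libraries, 50.9, 27.0 and 69.3 in MUT libraries and 74.8, 55.3 and 87.3 in REG. The non-classical class I sum was 44.9, 33.8 and 35.4 RPKM in WT libraries, 89.5, 36.4 and 112 in MUT libraries and 36.9, 54.3 and 55.7 in REG. It exceeded the classical sum in each MUT library, where most of its genes were within the range of the receptor genes (below).

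Read densities were also set against the receptor genes of the same library. H2-D1 lay 903, 1046 and 756 times above the median receptor gene in WT libraries, 26.3, 34.8 and 19.8 times in MUT libraries and 1782, 1558 and 2414 times in REG. The density of H2-K1, H2-D1, H2-Aa, H2-Ab1 and H2-Eb1 exceeded the 95th percentile of receptor genes in all 9 libraries. No other H2 gene did so. In WT 18 to 20 of the 34 genes exceeded that percentile, against 7 to 12 in MUT and 13 to 21 in REG. Over all genes the share above it was 47.2% to 54.1% in WT, 16.5% to 23.3% in MUT and 23.8% to 57.8% in REG. H2-T3, H2-Eb2, H2-M1, H2-M9, H2-M11 and the M10 genes other than H2-M10.2 and H2-M10.5 exceeded it in none.

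**Figure D1:**
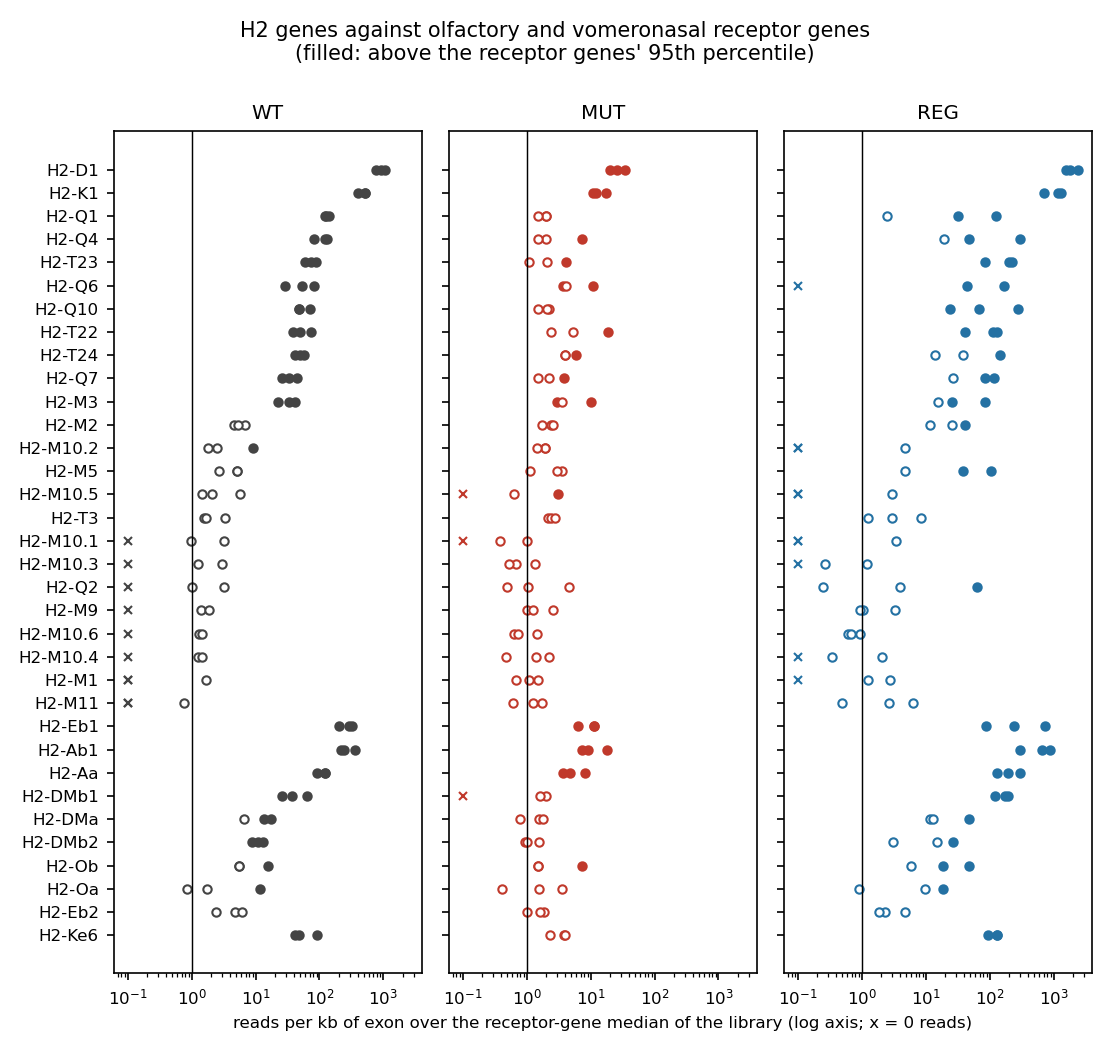
Read density of each H2 gene (reads per kb of exon) divided by the median density of olfactory and vomeronasal receptor genes in the same library, on a log axis, for 3 libraries per group. Filled points lie above the receptor genes' 95th percentile, open points do not, and crosses mark 0 reads; H2-D1 and H2-K1 are filled in all libraries and H2-T3 in none.

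Changes between groups were tested on log2 of the deposited value plus 0.367 in 1 limma fit of the 9 libraries, over the 29107 genes at or above 0.367 in at least 3 libraries. Of the 34 H2 genes, 26 were tested: both classical, 14 non-classical, all 9 class II and H2-Ke6. The 8 not tested, H2-M1, H2-M9, H2-M11, H2-M10.1, H2-M10.3, H2-M10.4, H2-M10.5 and H2-M10.6, had deposited values of at most 1.45 in any library. A gene was called at a Benjamini-Hochberg adjusted p under 0.05. The MUT vs WT comparison is about the mutation without surgery, and REG vs MUT about the surgery within Twist1+/- mice. Both use the same 3 MUT libraries, so opposite changes in them are not independent. Of the 26 tested, 7 were lower in MUT than in WT and 1 was higher, where 14.6% of all tested genes were lower and 20.5% higher. In REG vs MUT, 7 were higher and 3 lower, where 11.8% of all tested genes were higher and 24.8% lower. The median log2 change of the tested H2 genes was −0.17 in MUT vs WT and 0.15 in REG vs MUT, against 0.18 and −0.36 for all genes. By class the median in MUT vs WT was −1.99 for classical class I, 0.00 for non-classical class I and −0.02 for class II genes. H2-M10.2 passed the filter only through the MUT libraries, and H2-T3 only through these and REG replicate 2. H2-Eb2 reached it in WT replicates 1 and 3 and in the MUT libraries but in no REG library, so without MUT it would not have passed. Outside MUT, H2-Oa reached it only in WT replicate 3 and REG replicate 3, and H2-Q2 only in REG replicate 2, so these also needed MUT. All of these genes are in the counts and medians above, but a gene taken in through its MUT values is more likely to be called as high in MUT. Their calls and changes are therefore given as descriptions and support nothing.

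Both classical class I genes fell in MUT and rose in REG. H2-K1 (heavy chain of the H2-K molecule) had deposited values of 48.1, 39.6 and 38.1 in WT libraries, 16.7, 6.71 and 8.82 in MUT libraries and 74.8, 47.1 and 68.6 in REG. All MUT libraries lay below all others, and the WT and REG libraries overlapped. The log2 change was −2.02 ± 0.40, adjusted p = 0.00565 for MUT vs WT and 2.597 ± 0.40, adjusted p = 0.00234 for REG vs MUT. H2-D1 (heavy chain of the H2-D molecule) was at 74.4, 69.8 and 62.2 in WT libraries, 22.4, 16.6 and 14.2 in MUT libraries and 99.7, 92.3 and 113 in REG. The 3 groups of H2-D1 did not overlap, with MUT lowest and REG highest. Its log2 change was −1.96 ± 0.32, adjusted p = 0.00273 for MUT vs WT and 2.51 ± 0.32, adjusted p = 0.00134 for REG vs MUT. In these bulk samples, fewer cells of a type and less RNA per cell cannot be told apart. The per-length ratio of H2-K1 to H2-D1 was 0.568, 0.498 and 0.537 in WT libraries, 0.655, 0.351 and 0.546 in MUT libraries and 0.658, 0.448 and 0.534 in REG. The groups of this ratio overlapped, and MUT replicate 2 was the lowest library.

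**Figure D2:**
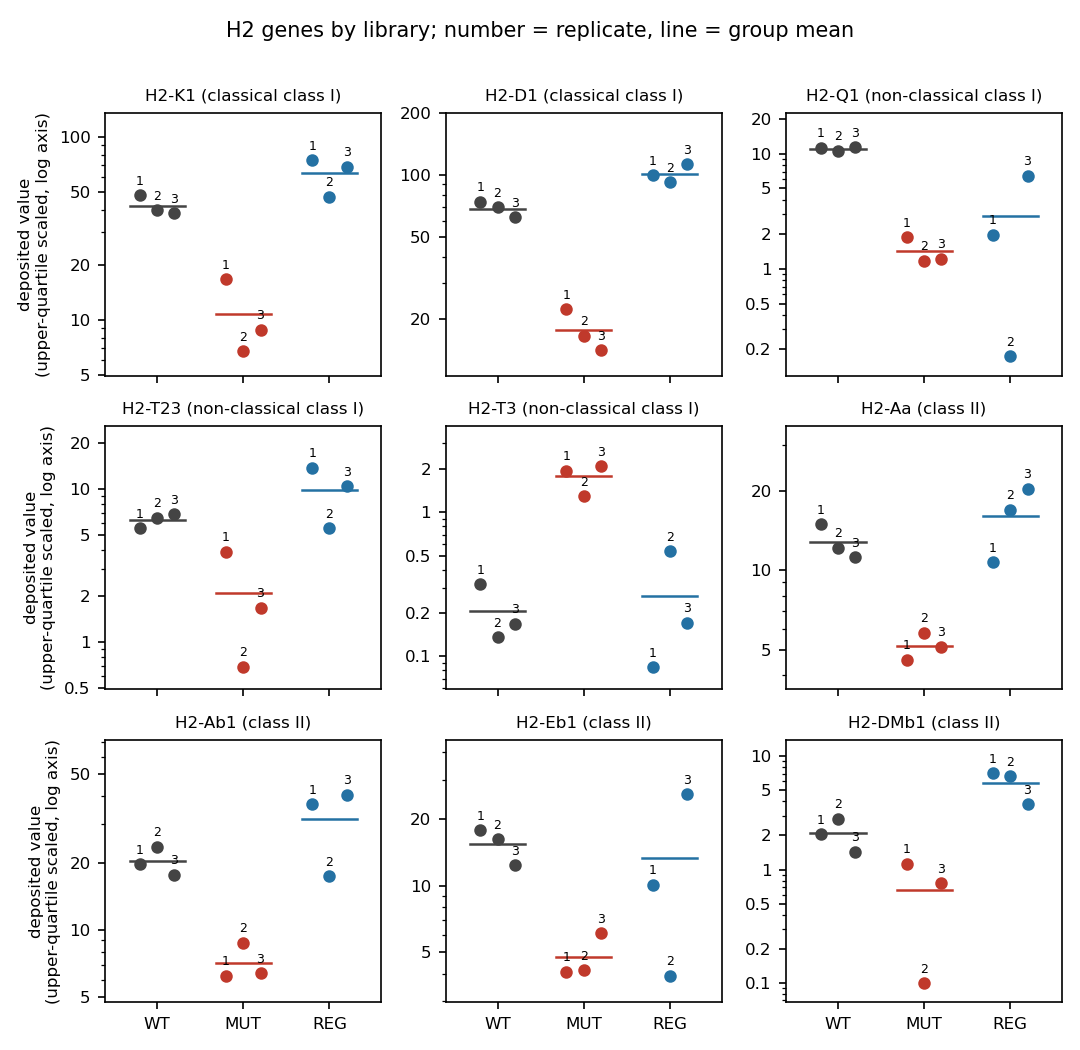
Deposited upper-quartile scaled values (log axis, each panel with its own range) of 9 H2 genes in the WT, MUT and REG libraries; points are libraries numbered by replicate and lines are group means. H2-K1, H2-D1, H2-Aa and H2-Ab1 are lowest in all 3 MUT libraries and H2-T3 is highest there, while REG replicate 2 is the lowest library for H2-Q1 and H2-Eb1.

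The fall of the classical genes in MUT depended on the scaling, while its direction was the same under all 5 scalings. On the RPM scale, H2-K1 was at 104, 75.0 and 79.6 RPM in WT libraries and 93.8, 22.5 and 53.4 RPM in MUT libraries, so that the groups overlapped. H2-D1 was at 161, 132 and 130.0 RPM in WT libraries and 126, 56.3 and 85.8 RPM in MUT libraries, with no overlap. With total-read scaling the log2 change was −0.80, adjusted p = 0.227, for H2-K1 and −0.72, adjusted p = 0.156, for H2-D1. The median of all genes was 0.18 in the deposited scaling, 1.11 with total reads, −0.19 with trimmed means, −0.03 with quantiles and 0.28 after background subtraction. Relative to the median with total reads, the pair had a median of −1.88, against −2.17 in the deposited scaling. Trimmed means kept both calls, at −2.39, adjusted p = 0.00257, for H2-K1 and −2.32, adjusted p = 0.00155, for H2-D1 (limma). Quantile scaling gave −0.88, adjusted p = 0.262, and −0.74, adjusted p = 0.221, and background subtraction −0.67, adjusted p = 0.480, and −0.53, adjusted p = 0.492. The rise in REG vs MUT was kept for both with total-read scaling (1.73, adjusted p = 0.0201, and 1.64, adjusted p = 0.00794). Trimmed means kept it as well (3.30, adjusted p = 0.00115, and 3.21, adjusted p = 0.000969, limma). Quantile scaling kept it for H2-D1 (1.47, adjusted p = 0.0344) and not for H2-K1 (1.65, adjusted p = 0.0591), and background subtraction ended both calls (1.595, adjusted p = 0.0972, and 1.44, adjusted p = 0.0692).

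**Figure D3:**
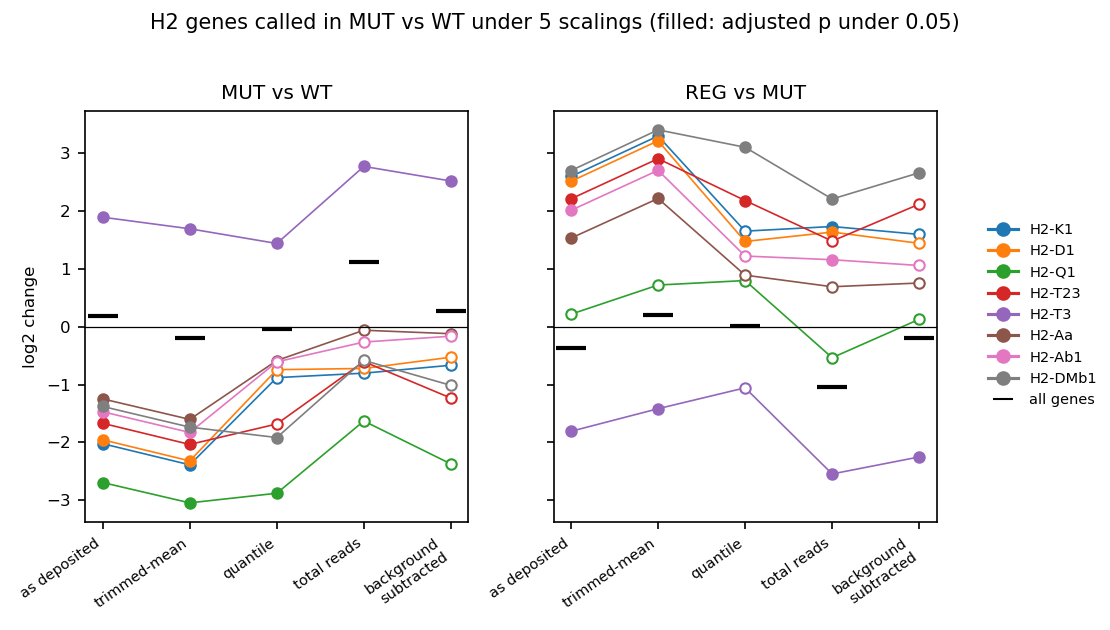
Log2 change (y axis) of the 8 H2 genes called in MUT vs WT under 5 scalings of the libraries (x axis), for MUT vs WT and REG vs MUT; filled points had an adjusted p under 0.05 and black bars are the median of all genes tested. H2-T3 is filled in MUT vs WT under all 5 scalings, and H2-DMb1 in REG vs MUT.

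Of the 14 non-classical class I genes tested, 2 fell in MUT, 1 rose and 11 were not called, shares no larger than the 14.6% lower and 20.5% higher of all genes. With total-read scaling 5 of 15 tested were higher and none lower, where 11734 of all 30353 genes tested were higher and 876 lower. H2-Q1, a Q-region class I gene, was at 11.2, 10.6 and 11.4 in WT libraries, 1.89, 1.18 and 1.22 in MUT libraries and 1.98, 0.175 and 6.44 in REG. WT was tight and lay above all 6 Twist1+/- libraries. The log2 change of H2-Q1 was −2.70 ± 0.74, adjusted p = 0.0198 for MUT vs WT, with no call for REG vs MUT (0.22 ± 0.74, adjusted p = 0.843) or REG vs WT (−2.48 ± 0.74, adjusted p = 0.498). Without REG replicate 3 the last of these was called (−3.34, adjusted p = 0.0198), and with REG replicate 3 alone it was −0.75, adjusted p = 1.00. In this and every other fit on 1 library of a group, that library is assumed to vary like the libraries of the other groups. The per-length ratio of H2-Q1 to H2-D1, which a single factor per library does not move, was 0.136, 0.136 and 0.165 in WT libraries, 0.0754, 0.0587 and 0.0764 in MUT libraries and 0.0178, 0.00160 and 0.0513 in REG. Every Twist1+/- library was below every WT library in this ratio; between MUT and REG the libraries did not overlap either, with REG lower. H2-Q1 itself was within the 95th percentile of receptor genes in all 3 MUT libraries (1.98, 2.04 and 1.51 times their median) and in REG replicate 2, so its ratio there is that of a gene at background level. H2-Q4, another Q-region gene, was at 10.96, 8.12 and 6.80 in WT libraries, 1.70, 3.61 and 1.10 in MUT libraries and 2.67, 1.17 and 14.1 in REG. It had a log2 change of −1.94 ± 0.73, adjusted p = 0.0625 in MUT vs WT.

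H2-T23 encodes Qa-1, the ligand of the natural killer cell receptor NKG2A. Its values were 5.59, 6.52 and 6.87 in WT libraries, 3.90, 0.689 and 1.68 in MUT libraries and 13.9, 5.56 and 10.4 in REG. It fell in MUT (−1.67 ± 0.53, adjusted p = 0.0333) and rose in REG vs MUT (2.21 ± 0.53, adjusted p = 0.0108), and the MUT libraries lay below all others. MUT replicate 2 was the lowest, and without it the MUT vs WT change was −1.18, adjusted p = 0.118, and the REG vs MUT change 1.72, adjusted p = 0.0352. As RPM the WT and MUT libraries overlapped, at 12.1, 12.3 and 14.3 in WT and 21.8, 2.005 and 10.04 in MUT libraries.

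H2-T3 encodes the thymus leukaemia antigen, known from thymocytes and gut epithelium. It was the only H2 gene called higher in MUT: its values were 0.316, 0.136 and 0.169 in WT libraries, 1.94, 1.30 and 2.09 in MUT libraries and 0.0839, 0.536 and 0.172 in REG. MUT lay above all other libraries, with a log2 change of 1.89 ± 0.37, adjusted p = 0.00551 for MUT vs WT and −1.81 ± 0.37, adjusted p = 0.00622 for REG vs MUT. No WT library reached the filter, so that the MUT values decided whether H2-T3 was tested at all, and the 19 alternatives in which it was tested and called share this condition. Beside this, its read density was 3.31, 1.55 and 1.67 times the receptor-gene median in WT libraries, 2.14, 2.38 and 2.75 times in MUT libraries and 1.26, 8.38 and 2.98 times in REG. Set against the receptor genes of the same library, the WT and MUT libraries of H2-T3 thus overlapped.

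H2-M10.2, one of the M10 family known from vomeronasal neurons, was at 0.358, 0.0791 and 0.112 in WT libraries, 0.725, 0.499 and 0.475 in MUT libraries and 0.00932, 0.0112 and 0.121 in REG. Its fitted difference was −1.17 ± 0.34, adjusted p = 0.0226 for REG vs MUT and 0.79 ± 0.34, adjusted p = 0.0950 for MUT vs WT, both in a test that it entered only through MUT. Its density was 9.30, 1.83 and 2.49 times the receptor-gene median in WT libraries, 1.93, 1.95 and 1.47 times in MUT libraries and 0, 0 and 4.79 times in REG. H2-M2 was at 0.367, 0.211 and 0.289 in WT libraries, 1.26, 0.599 and 1.11 in MUT libraries and 0.410, 0.940 and 1.19 in REG, and was not called in MUT vs WT (1.02 ± 0.38, adjusted p = 0.0603). H2-M3, which presents formylated bacterial peptides, was at 1.04, 1.56 and 1.58 in WT libraries, 1.42, 1.06 and 4.08 in MUT libraries and 0.816, 0.524 and 2.22 in REG; all groups overlapped. H2-M5 separated the REG libraries: it was at 2.26, 6.63 and 0.252 in REG against 0.260, 0.388 and 0.470 in WT libraries and 1.02, 1.89 and 2.27 in MUT libraries. All MUT libraries were above all WT libraries in deposited value (MUT vs WT 1.46 ± 0.73, adjusted p = 0.144, limma). The density of H2-M5 was 2.70, 5.19 and 5.20 times the receptor-gene median in WT libraries and 1.14, 3.60 and 3.02 times in MUT libraries. In REG it was 38.5, 107 and 4.68 times. Set against the receptor genes, the WT and MUT libraries thus overlapped. H2-M5 was within their 95th percentile in all WT and MUT libraries and in REG replicate 3. Its REG vs MUT change was −1.71 with REG replicate 3 as the only REG library, and 1.08, adjusted p = 0.114, with REG replicates 1 and 2 alone.

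The other tested Q and T genes were not called in any comparison. H2-Q6 and H2-Q7 encode the Qa-2 antigen. H2-Q6 was at 5.49, 2.94 and 1.92 in WT libraries, 2.58, 4.28 and 2.40 in MUT libraries and 1.998, 0.0112 and 6.39 in REG, and H2-Q7 at 6.02, 3.73 and 3.58 in WT libraries, 5.37, 1.28 and 2.71 in MUT libraries and 10.7, 2.67 and 6.48 in REG. The lowest H2-Q6 value, in REG replicate 2, stands for 0 reads. The groups of both overlapped (MUT vs WT −0.07 ± 0.87, adjusted p = 0.956 for H2-Q6 and −0.61 ± 0.57, adjusted p = 0.430 for H2-Q7). H2-Q10, known as a secreted class I protein of the liver, was at 6.64, 7.93 and 6.59 in WT libraries, 3.21, 1.78 and 1.82 in MUT libraries and 2.27, 28.3 and 5.48 in REG. All MUT libraries lay below all WT libraries for H2-Q10 (MUT vs WT −1.53 ± 0.72, adjusted p = 0.123), and REG replicate 2 was the highest of the 9. The same library was the highest for H2-Q2, which was at 0.0984, 0.211 and 0.0241 in WT libraries, 0.768, 1.97 and 0.323 in MUT libraries and 0.0212, 3.19 and 0.181 in REG. H2-T22, a ligand of some gamma-delta T cell receptors, was at 5.37, 6.53 and 4.23 in WT libraries, 2.68, 3.41 and 17.9 in MUT libraries and 3.02, 9.04 and 7.97 in REG, with MUT replicate 3 far above the rest. H2-T24 was at 4.01, 2.37 and 3.48 in WT libraries, 2.92, 1.70 and 3.62 in MUT libraries and 0.669, 1.91 and 5.68 in REG, and both its extremes were REG libraries.

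Of the 9 class II genes, 3 fell in MUT, none rose and 6 were not called, where 14.6% of all tested genes fell and 20.5% rose. The alpha and beta chains of the H2-A molecule both fell in MUT and rose in REG vs MUT. H2-Aa was at 15, 12.2 and 11.2 in WT libraries, 4.58, 5.79 and 5.12 in MUT libraries and 10.7, 17.02 and 20.5 in REG. H2-Ab1 was at 19.8, 23.7 and 17.8 in WT libraries, 6.25, 8.80 and 6.41 in MUT libraries and 36.6, 17.5 and 40.6 in REG. In both genes all MUT libraries lay below all others, and WT and REG overlapped. H2-Aa fell in MUT (−1.25 ± 0.35, adjusted p = 0.0213) and rose in REG vs MUT (1.53 ± 0.35, adjusted p = 0.00904). For H2-Ab1 the changes were −1.47 ± 0.39, adjusted p = 0.0182 and 2.01 ± 0.39, adjusted p = 0.00513. As RPM the 2 groups overlapped for both: H2-Aa was at 32.5, 23.1 and 23.4 in WT libraries and 25.7, 19.4 and 30.9 in MUT libraries, and H2-Ab1 at 42.8, 44.8 and 37.0 in WT and 35.1, 29.6 and 38.7 in MUT libraries. Their log2 changes for MUT vs WT with total-read scaling were −0.06, adjusted p = 0.911, and −0.27, adjusted p = 0.596. The H2-Aa call in MUT vs WT was also lost when any 1 WT or MUT library was left out (adjusted p up to 0.117), and the H2-Ab1 call for each of these except MUT replicate 2 (up to 0.090).

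H2-Eb1, the beta chain of the H2-E molecule, was at 17.8, 16.2 and 12.4 in WT libraries, 4.08, 4.14 and 6.08 in MUT libraries and 10.1, 3.92 and 25.9 in REG. MUT lay below WT, and its log2 change missed the threshold narrowly (−1.63 ± 0.58, adjusted p = 0.0506). In REG the libraries spread from below all MUT libraries to above all WT libraries. REG vs MUT was not called (1.06 ± 0.58, adjusted p = 0.175), but was called without REG replicate 2 (1.71, adjusted p = 0.0162). With REG replicate 3 as the only REG library the difference was 2.38, adjusted p = 0.00950, with the spread taken from WT and MUT. H2-Eb2, a second beta chain gene, had values of 0.538, 0.240 and 0.682 in WT libraries, 2.14, 1.10 and 0.964 in MUT libraries and 0.177, 0.157 and 0.319 in REG. It was not called in MUT vs WT (1.03 ± 0.38, adjusted p = 0.0580). Its fitted difference in REG vs MUT was −1.55 ± 0.38, adjusted p = 0.0120, in a test that it entered only with its MUT values. In no library did H2-Eb2 exceed the 95th percentile of receptor genes.

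H2-DMa, H2-DMb1 and H2-DMb2 encode the chains of H2-DM, which exchanges the peptides of class II molecules. H2-DMb1 was at 2.04, 2.81 and 1.44 in WT libraries, 1.12, 0.0998 and 0.762 in MUT libraries and 7.04, 6.64 and 3.78 in REG, and the 3 groups did not overlap. The value of MUT replicate 2 stands for 0 reads, and replicate 2 was the shallowest library. H2-DMb1 was called in MUT vs WT (−1.38 ± 0.48, adjusted p = 0.0495), but not without MUT replicate 2 (−0.89, adjusted p = 0.180). Its rise in REG vs MUT (2.70 ± 0.48, adjusted p = 0.00387) was called under every alternative run, with an adjusted p of at most 0.036. H2-DMa was at 1.54, 1.58 and 0.741 in WT libraries, 1.80, 0.599 and 1.75 in MUT libraries and 0.886, 1.04 and 3.05 in REG, and was not called in any comparison. Neither was H2-DMb2, at 0.756, 0.427 and 0.626 in WT libraries, 0.914, 0.399 and 0.505 in MUT libraries and 0.578, 0.137 and 0.865 in REG. The per-length ratio of H2-DMb1 to H2-DMa was 2.73, 3.67 and 4.05 in WT libraries, 1.27, 0 and 0.880 in MUT libraries and 16.5, 13.2 and 2.54 in REG. REG replicates 1 and 2 were the highest, and REG replicate 3 was below the WT libraries. In all 3 MUT libraries both genes were within the 95th percentile of receptor genes, with H2-DMb1 at 2.00, 0 and 1.59 times their median. H2-DMa was also within it in WT replicate 3 and REG replicates 1 and 2. In these libraries the ratio thus rests on values at background level.

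H2-Oa and H2-Ob form H2-O, an inhibitor of H2-DM known from B cells. H2-Oa was at 0.107, 0.0570 and 0.544 in WT libraries, 0.730, 0.207 and 1.41 in MUT libraries and 0.304, 0.0409 and 0.504 in REG. H2-Ob was at 2.70, 0.791 and 0.977 in WT libraries, 2.70, 1.57 and 10.8 in MUT libraries and 0.693, 5.85 and 1.85 in REG. Groups overlapped for both and neither was called (MUT vs WT 0.87 ± 0.51, adjusted p = 0.207 for H2-Oa and 1.27 ± 0.78, adjusted p = 0.228 for H2-Ob). H2-Ke6, the enzyme gene of the region, was at 2.52, 3.96 and 2.17 in WT libraries, 2.12, 0.805 and 1.80 in MUT libraries and 3.43, 5.02 and 3.92 in REG. It rose in REG vs MUT (1.26 ± 0.40, adjusted p = 0.0318) and was not called in MUT vs WT (−0.77 ± 0.40, adjusted p = 0.154).

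Among the alternatives in which it could be tested, the MUT vs WT call held in 18 of 21 for H2-K1, 17 of 21 for H2-D1, 14 of 21 for H2-Q1, 12 of 21 for H2-Ab1, 11 of 21 for H2-T23, 10 of 21 for H2-Aa and 6 of 21 for H2-DMb1, and no call changed sign. In REG vs MUT it held in 23 of 23 for H2-DMb1, 22 of 23 for H2-D1, 21 of 23 for H2-K1 and H2-T23, 20 of 23 for H2-Ab1, 17 of 23 for H2-Aa, 17 of 22 for H2-Eb2 and 8 of 23 for H2-Ke6. H2-Eb2 passed the main filter only with its MUT values, so its count is a description. Total-read scaling gave 6 higher and none lower of 27 H2 genes in MUT vs WT, where 11734 of 30353 genes were higher and 876 lower. The count of 8 called became 3 without any 1 WT library or MUT replicate 3 and 5 without MUT replicate 1 or 2. It became 14 of 25 H2 genes tested without REG replicate 2, where 7178 of all 28615 genes were higher and 5538 lower. Without WT replicate 2, 2648 of 28731 genes were higher and 1877 lower, and without MUT replicate 3, 1612 and 2144 of 25475. The count of 10 in REG vs MUT became 6 without MUT replicate 1, where 1754 of 25266 genes were higher and 2163 lower.

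**Figure D4:**
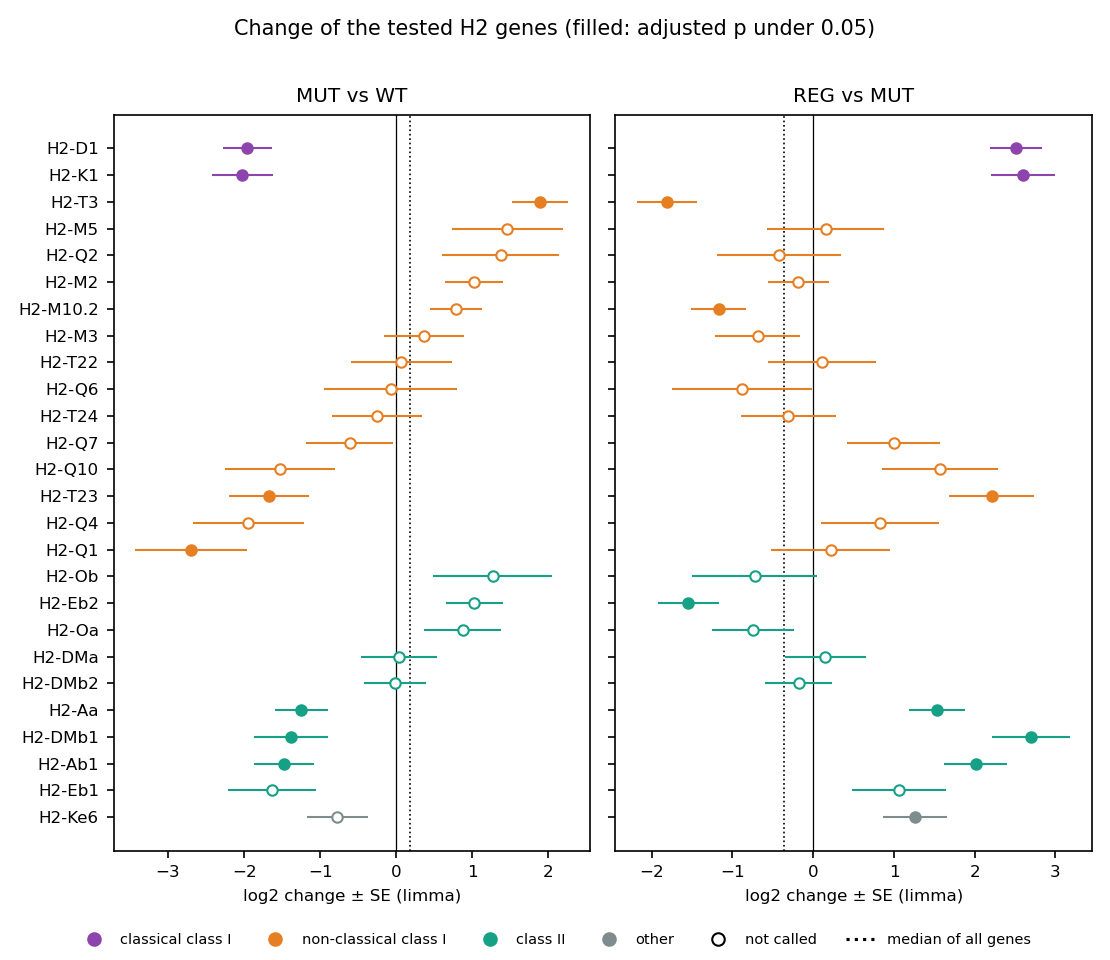
Log2 change with its standard error from limma (x axis) of the 26 tested H2 genes, by class, for MUT vs WT and REG vs MUT; filled points had an adjusted p under 0.05 and the dotted line is the median of all genes (0.18 and −0.36). H2-K1, H2-D1, H2-Aa, H2-Ab1, H2-DMb1 and H2-T23 are filled on the low side in MUT vs WT and on the high side in REG vs MUT.

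In the authors' deposited table, an FDR under 0.05 over 43644 genes was reached in MUT vs WT by H2-Aa, H2-Ab1, H2-D1, H2-K1, H2-Q1 and H2-T23 on the lower side, where 8.22% of all genes were lower. On the higher side the authors' deposited table lists H2-T3, H2-M1, H2-M9, H2-M10.4, H2-M10.6 and H2-M11, where 17.3% were higher. In REG vs MUT the authors' deposited table gives 6 H2 genes as higher (7.69% of all genes) and 10 as lower (33.8%), and none in REG vs WT (0%). The authors' deposited table thus calls 5 M genes as higher in MUT that did not reach the filter used here. Their highest deposited value in MUT was 1.23, of H2-M9, and each was within the 95th percentile of receptor genes in all 9 libraries.

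The third comparison sets the operated Twist1+/- sutures against wild-type ones. No H2 gene was called by limma, and none of all tested genes was (0%), while 2 H2 genes and 2755 of all genes had an unadjusted p under 0.05. The largest H2 differences were those of H2-Q1 (−2.48 ± 0.74, adjusted p = 0.498), H2-M5 (1.61 ± 0.73, adjusted p = 0.528) and H2-DMb1 (1.32 ± 0.48, adjusted p = 0.509). For H2-D1, H2-DMb1 and H2-M2 all REG libraries lay above all WT libraries, and for H2-Q1 all lay below. The share of all genes that separated in this way is not given here, so this is a description and no result about H2 genes. H2-D1 differed by 0.56 ± 0.32, adjusted p = 0.581, and H2-K1 by 0.57 ± 0.40, adjusted p = 0.638. H2-M5 was called with REG replicates 1 and 2 alone (2.54, adjusted p = 0.0264).

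The partners of class I were measured from a list of 18 genes of class I loading and regulation, all tested. In MUT 6 fell and 1 rose, with a median log2 change of −0.98, and in REG vs MUT 8 rose and none fell (1.45). Of all tested genes, 14.6% fell and 20.5% rose in MUT, and 11.8% rose and 24.8% fell in REG vs MUT. B2m, the light chain, went from 44.6 ± 3.79 in WT to 16.9 ± 11.7 in MUT (−1.59 ± 0.47, adjusted p = 0.0270) and 59.9 ± 16.4 in REG (REG vs MUT 1.99 ± 0.47, adjusted p = 0.0109; mean ± SD, n = 3). Tapbp, which encodes tapasin of the loading complex, fell from 31.6 ± 4.30 to 4.57 ± 2.41 (−2.84 ± 0.50, adjusted p = 0.00351) and rose to 23.3 ± 10.02 (2.33 ± 0.50, adjusted p = 0.00703). The chaperones Pdia3, Calr and Canx also fell in MUT, by 2.42, 2.38 and 2.45 on the log2 scale, and rose in REG vs MUT. Tap1 and Tap2 encode the peptide transporter. Tap2 fell in MUT (−3.48 ± 0.82, adjusted p = 0.0112), and Tap1 was not called (−0.53 ± 0.44, adjusted p = 0.369). Erap1, a trimming peptidase, rose (1.17 ± 0.40, adjusted p = 0.0451). Nlrc5, the class I transactivator, was at 9.68, 6.49 and 5.34 in WT libraries, 5.70, 3.38 and 5.29 in MUT libraries and 11.8, 0.465 and 7.65 in REG and was not called (−0.54 ± 0.84, adjusted p = 0.640). The per-length ratio of H2-K1 plus H2-D1 to B2m was 0.907, 0.713 and 0.760 in WT libraries, 0.98, 0.248 and 0.922 in MUT libraries and 1.12, 0.864 and 0.731 in REG, with MUT replicate 2 lowest. With total-read scaling 2 genes of the list were higher and 3 lower in MUT, with a median of 0.16 (−0.95 relative to all genes). Over all 30353 genes tested in this way, 11734 were higher and 876 lower.

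Of 15 genes of the class II pathway, all tested, 9 fell and 2 rose in MUT (median −1.83), and 8 rose and 1 fell in REG vs MUT (1.67). The shares of all tested genes were 14.6% lower and 20.5% higher in MUT, and 11.8% higher and 24.8% lower in REG vs MUT. Cd74, the invariant chain, went from 51.6 ± 9.99 in WT to 13.7 ± 1.80 in MUT (−1.88 ± 0.38, adjusted p = 0.00607) and 61.8 ± 26.6 in REG (REG vs MUT 2.08 ± 0.38, adjusted p = 0.00404). Ctss, the protease that trims it, went from 19.7 ± 3.19 to 5.21 ± 0.294 and 33.4 ± 7.19 (MUT vs WT −1.83 ± 0.32, adjusted p = 0.00360). Ctsb, Ctsd, Ctsl, Lgmn and Ifi30, which act in lysosomes of many cells, fell as well, by 1.41 to 2.63 on the log2 scale. Of the RFX factors that bind class II promoters, Rfxap fell (−3.68 ± 0.49, adjusted p = 0.00148) and Rfx5 fell (−2.002 ± 0.57, adjusted p = 0.0226). Ciita, the class II transactivator, was at 6.02, 3.44 and 3.72 in WT libraries, 4.94, 4.13 and 3.91 in MUT libraries and 11.9, 6.63 and 6.42 in REG and was not called (0.01 ± 0.37, adjusted p = 0.983). The costimulators Cd80 and Cd40 rose in MUT, by 1.74 and 1.28, in the deposited scaling. With trimmed means 0 of the 15 genes were higher and 9 lower, where 3448 of 27878 genes were higher and 5559 lower. The per-length ratio of H2-Aa plus H2-Ab1 to Cd74 was 0.333, 0.372 and 0.412 in WT libraries, 0.457, 0.529 and 0.534 in MUT libraries and 0.603, 0.418 and 0.384 in REG. All MUT libraries lay above all WT libraries in this ratio, and REG overlapped both. H2-Aa was at 124, 124 and 92.4 times the receptor-gene median in WT libraries but at 3.64, 8.12 and 4.85 times in MUT libraries. Background reads were not taken off for this ratio, and whether the separation holds without them was not tested. With total-read scaling 2 genes of the list were higher and 2 lower in MUT, with a median of −0.64; background subtraction gave 1 and 1, with −0.72.

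Of 15 class I-like genes outside the complex, B2m included, 2 fell and 1 rose in MUT (median 0.16). Of all tested genes 14.6% fell and 20.5% rose. Fcgrt, which encodes the neonatal Fc receptor that also pairs with B2m, fell from 27.3 ± 8.54 to 3.78 ± 2.48 (−2.85 ± 0.53, adjusted p = 0.00442) and rose in REG vs MUT (2.14 ± 0.53, adjusted p = 0.0124). H60c, a ligand of the NKG2D receptor, rose (1.46 ± 0.41, adjusted p = 0.0225, limma). Trimmed means gave 1 higher and 2 lower of 14 tested in this list, where 3448 and 5559 of 27878 genes were. Quantile scaling gave 0 higher and 1 lower of 15, where 2682 and 2499 of 29107 genes were. Background subtraction gave 0 higher and 0 lower of 12, where 3425 and 853 of 24220 genes were. Mr1 and Cd1d1, which present metabolites and lipids, were not called (−0.01 ± 0.61, adjusted p = 0.988, and 0.72 ± 0.79, adjusted p = 0.498).

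Markers of cells that carry class II molecules are read against the same shares of all genes, 14.6% lower and 20.5% higher in MUT. Of 13 macrophage and monocyte markers, 6 fell and none rose in MUT (C1qa, C1qb, C1qc, Cd68, Csf1r and Mertk), and the same 6 rose in REG vs MUT. With total-read scaling 1 of the 13 fell in MUT, where 876 of all 30353 genes fell. After background subtraction none did, where 853 of 24220 genes fell. Their summed deposited level over the list was 144 to 189 in WT, 65.4 to 78.8 in MUT and 235 to 245 in REG, with no marker at 0 reads. As RPM the same list summed to 299 to 358 in WT, 218 to 476 in MUT and 526 to 693 in REG. The per-length ratio of H2-Ab1 to Csf1r was 1.27, 1.07 and 1.04 in WT libraries, 1.17, 2.77 and 0.846 in MUT libraries and 0.851, 0.889 and 1.35 in REG. MUT replicate 2 was the highest in this ratio. The part of these cells in the H2 changes was not tested.

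Of 12 B cell markers, none fell in MUT and 3 rose (Pax5, Cd22 and Ms4a1), a share near that of all genes, with summed levels of 37.6 to 89.6 in WT, 343 to 1783 in MUT and 71.8 to 116 in REG. With total-read scaling 10 of the 12 were higher, where 11734 of all 30353 genes tested were. With trimmed means 1 was, where 3448 of 27878 genes were. Pax5 alone was at 271, 1547 and 363 in MUT libraries. Of 10 dendritic cell markers, 1 rose (Xcr1, and 7 with total-read scaling) and none fell, and the list summed to 11.7 to 15.7 in WT, 20.3 to 21.5 in MUT and 13.6 to 21.1 in REG. None of the 10 was higher with trimmed means or with quantile scaling, where 2682 of 29107 genes were higher. After background subtraction none of 9 tested was higher, where 3425 of 24220 genes were. Among 12 T and NK cell markers, of which 11 were tested, 2 rose (Cd3g and Cd28); Cd3d, Ncr1, Nkg7 and Prf1 were each at 0 reads in 1 library, and the list summed to 9.88 to 12.1 in WT, 24.9 to 30.8 in MUT and 10.6 to 13.4 in REG. Endothelial markers, of cells that carry class I molecules in abundance, gave 3 lower of 10 in MUT and summed to 116 to 155, 45.5 to 76.7 and 88.9 to 193 in WT, MUT and REG. None of the 10 neutrophil markers was called in MUT vs WT and 1 rose in REG vs MUT (Elane); this list summed to 213 to 1066, 380.3 to 1279.8 and 1369 to 3752. The suture and bone cell list summed to 24963 to 44908, 1339.6 to 14344 and 12621 to 33558 in the same order.

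Near-identical sequence limits how far reads can be assigned to single H2 genes. Of all 75-base stretches of its transcripts, the length of 1 read, H2-T22 shares 18.5% with other genes (15.7% with H2-T10), H2-Q6 17.9%, H2-Q7 17%, H2-DMb2 16.1% and H2-DMb1 15.8%. H2-DMb1 shares all of these with H2-DMb2, so the values of H2-DMb1 are uncertain in this respect. H2-Q10 shares 12.5%, H2-Q1 11%, H2-Q2 8.07%, H2-Q4 7.02%, H2-T23 5.91%, H2-D1 5.40% and H2-K1 3.10%. H2-Ke6 shares 65.5% with the overlapping entry Gm20427. No stretch of H2-Aa, H2-Ab1, H2-Eb1, H2-Eb2 or H2-T3 occurs in another gene. How the authors' counting treated reads with several matches is not given in the sources used here. A value counts as a whole number of reads when the estimate lies within 0.02 of one, and this held for 26% of the values above 0 over all genes, 19.9% in non-classical class I, 12.5% in class II and 5.56% in classical class I genes.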

How the data were processed

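Total RNA of 9 coronal suture libraries was sequenced single-end, and the submitters' processing notes name STAR 2.6.1d, Partek and mm10; the counting step is not given in any source read here. The deposited matrix holds an upper-quartile scaled signal per gene (75th percentile about 2.76 in every library). A second deposited file lists the authors' p-value, FDR and log2 ratio for each comparison. Matrix columns were joined to its genes by 4 statistics that matched for 43644 of 43644 genes (relative tolerance 1e-06), the set being unique for 43478 of all genes and for all 34 H2 genes. Each value was divided by the lowest of its library and lowered by 1 to estimate reads; RPM and RPKM were computed from them with exon lengths of GENCODE M21, where all 34 genes were found. As many are not whole, no count test was used.

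One limma 3.58.1 fit in R 4.3.3 on log2(value + 0.367) gave the 3 comparisons. The pseudocount, also the filter (in at least 3 libraries), is 1 millionth of the median column sum, and a fold change on this scale understates the change of low genes. P-values are two-sided, Benjamini-Hochberg adjusted over 29107 genes, and called under 0.05. With 3 against 3 libraries an exact permutation test cannot go below 0.1, and none was run. Alternatives were scaling by trimmed means, quantiles or total reads, subtraction of the background, other filters and pseudocounts, a mean-variance trend, only the 2 groups compared, a replicate block, and fits without single libraries. The code was tested on simulated data. Tables used pandas 2.3.3 and numpy 2.4.6 under Python 3.11.15; figures used matplotlib 3.10.9. The background is the median read density of 1747 receptor genes.

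The H2 genes, gene lists and tests were chosen with earlier results of these data known. Named were all H2 genes, with the value in every library for those that passed the filter, and from the lists B2m, Tap1, Tapbp, Nlrc5, Cd74, Ciita, Ctss and called genes of smallest p; others named were chosen after their values were seen.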

Additional observations from a re-analysis of the deposited data

How the results depend on the processing

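The number of H2 genes called in MUT vs WT was 8 as reported, where 5964 of all 29107 genes tested were higher and 4261 lower. It was 3 with quantile scaling (2682 and 2499 of 29107 genes) and 1 with background subtraction (3425 and 853 of 24220). With no filter it was 14 (7952 and 4133 of 43644), and with the pseudocount divided by 10 it was 5 (5584 and 3200 of 29107). With only the 2 groups compared it was 14 (7848 and 6264 of 27743), and with 1 library left out 3 to 14. In REG vs MUT it was 10 (3432 of all 29107 genes higher and 7221 lower), then 4 with quantile scaling (1890 and 2310 of 29107). It was 2 with background subtraction (819 and 3154 of 24220) and 6 to 11 with 1 library left out. In REG vs WT it was 0, then 2 with REG replicates 1 and 2 alone (413 of all 28808 genes higher and 1203 lower) and 0 to 2 with 1 library left out. The calls over all genes changed as well, so these counts are descriptions and no result about H2 genes. The change of H2-M5 in REG vs MUT turned negative with REG replicate 3 alone (−1.71), an arm of 1 library whose spread is assumed to be that of WT and MUT. In that library and in all MUT libraries H2-M5 was within the 95th percentile of receptor genes. The cause was not tested. No call of the 18 reported reversed under any alternative. Over single genes and alternatives, 383 of 520 values kept their direction and side of the threshold in MUT vs WT, 460 of 572 in REG vs MUT and 500 of 545 in REG vs WT. Same-numbered replicates did not deviate together (correlations from −0.20 to 0.10), so the numbers were not taken to pair the libraries; with a replicate block 7, 9 and 0 H2 genes were called in the 3 comparisons. MUT replicate 2, with 2945636 estimated reads, limits what low values can show.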

Other observations

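A further 11 entries of the table carry an H2- symbol and a pseudogene type, and were left out of the comparisons. H2-T10, which shares stretches with H2-T22, was at 1.05, 0.769 and 0.622 in WT libraries, 5.53, 2.20 and 4.76 in MUT libraries and 1.89, 2.83 and 0.646 in REG. It was called higher in MUT by limma (log2 change 1.87 ± 0.49, adjusted p = 0.0173), with all MUT libraries above all WT libraries. Its estimated reads were 36.2, 28.2 and 24.8 in WT libraries and 337.9, 21.1 and 225.9 in MUT libraries. The receptor-gene median was 1.13, 0.982 and 1.32 reads per kb in WT and 20.2, 1.85 and 13.2 in MUT libraries. Set against that median, all MUT libraries of H2-T10 lay below all WT libraries. H2-Ea-ps, the defective alpha chain gene of the H2-E molecule in this strain, was at 0.0564, 0.0264 and 0.120 in WT libraries, 0.631, 0.699 and 0.537 in MUT libraries and 0.0279, 0.246 and 0.0487 in REG. It reached the filter only in the 3 MUT libraries, so that its MUT vs WT difference (1.19 ± 0.32, adjusted p = 0.0193, limma) is a description and no support for a rise. Single libraries stood out for H2-K2, at 10.2 in MUT replicate 2 and at most 2.49 elsewhere, for H2-Pb, at 4.29 in the same library and at most 0.781 elsewhere, and for H2-Bl, at 3.23 in REG replicate 1 and at most 0.783 elsewhere. H2-Q5 was at 2.77, 1.62 and 1.71 in WT libraries, 2.13, 0.678 and 0.912 in MUT libraries and 0.412, 0.0335 and 2.69 in REG.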
